A study of Mus musculus with 4 samples.

Results

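Integrin, cadherin and claudin genes are the main families of proteins by which cells hold on to the matrix and to each other, and their transcripts were compared here between hearts of wild-type and heterozygous mice. The members were every gene whose symbol in the platform annotation begins with Itga or Itgb, with Cdh followed by a digit, or with Cldn, apart from Itgal, Itgb7, Cdh2 and Cdh5, and only probe sets that carry a single gene symbol were used. This gave 39 genes on 59 probe sets, out of 8251 genes and 12422 probe sets on the arrays without controls. By name alone the rule also took Itgb1bp1, which encodes a protein that binds an integrin tail, and Cldnd1, which encodes a claudin domain protein. Every genotype was represented by 2 samples, and every sample was total RNA of whole heart from a pool of 5 adult male mice of 8 to 16 weeks on a mixed 129/Black Swiss background. The groups shared everything named in the labels except the genotype. The labels do not say whether pools of a genotype came from separate animals. The p-values therefore set the genotype difference only against the spread within genotypes in these 4 samples, shared in part across probe sets.

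An integrin is a pair of an alpha and a beta subunit that spans the membrane, binds matrix proteins or cell-surface ligands outside, and connects to actin through talin, kindlin and vinculin inside. The beta 2 integrins and alpha 4 and alpha E chains are best known from leukocytes, whereas beta 1 pairs with many alpha chains and carries laminin and fibronectin receptors in muscle and vessel wall. Cadherins bind each other across neighbouring cells in the presence of calcium, and in the heart they form part of the intercalated disc. Claudins seal the space between cells of epithelia and endothelium at tight junctions.

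Signals are the linear intensities of the authors' table, 1 per probe set and pool, with a similar average on every array, and errors of signals are SD over 2 pools. Probe sets in the lowest 40% by mean signal over all 4 arrays (mean up to 348.875) were not tested. The remaining 7453 were fitted with limma, p-values were adjusted over all of them by the Benjamini-Hochberg method, and a probe set passed at an adjusted p under 0.05. Log2 changes are heterozygous minus wild type with limma's SE, and folds are taken from the difference of mean log2 signals. Levels of different probe sets are not compared with each other, since each has its own probes. Log2 signals of tested probe sets correlated across probe sets at 0.971 between the wild-type pools, 0.970 between the heterozygous pools and 0.845 to 0.856 between genotypes. Of the list of cardiomyocyte markers 9 of 10 were tested, the lowest at the 98.0th percentile of mean signal over all probe sets.

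Among the members, Itgb2, the beta chain of leukocyte integrins, and Itgb4, the beta chain of epithelial hemidesmosomes, fell in the heterozygous pools, while the matrix receptor genes Itga5, Itga7, Itgb1 and Itgb5, the cadherin gene Cdh13 and Cldnd1 rose. Of 24 tested probe sets, from 18 genes, 7 rose, 2 fell and 15 did not pass. The share that rose was 29.2% (background over all tested probe sets 17.9%), the share that fell was 8.3% (background 20.4%), and the share called in either direction was 37.5% (background 38.3%). Of the 7 that rose, 2 (Itga5 and Cldnd1) were bright enough to be tested only through the heterozygous pools, where they are high, so the share that rose is not read against its background. Counted by gene, with the probe set of highest mean signal standing for each, 6 of 18 rose and 2 fell, where 19.5% of 5692 tested genes rose and 19.5% fell. The median log2 change was 0.18 over the 18 genes and 0.02 over all tested genes. In 19 of the 24 probe sets, or 79.2%, both pools of a genotype lay to the same side of both others, against 70.1% of all tested probe sets. Leaving out wild-type pool 1 left 4 that rose, wild-type pool 2 left 7, heterozygous pool 1 left 4 and heterozygous pool 2 left 2, and the number that fell was 2 each time. Without the filter on dim probe sets, Itga7 rose and Itgb2 fell, 1 member in each direction.

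**Figure D1:**
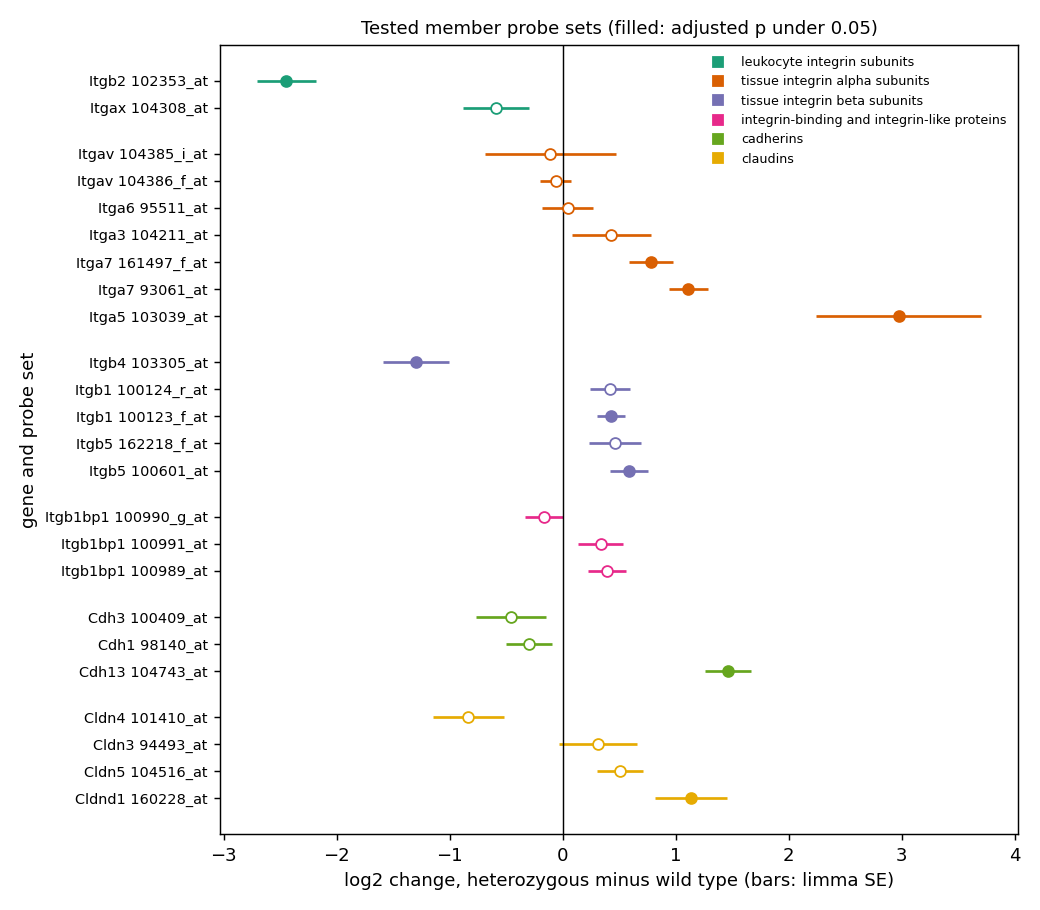
Log2 change (heterozygous minus wild type, horizontal axis) with limma's SE for the 24 tested member probe sets, grouped by class, with filled points past an adjusted p of 0.05. Itgb2 at -2.45 and Itgb4 at -1.30 lie lowest, and Itga5 at 2.98 lies highest with the widest SE.

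The filter bears on these counts. The 35 untested probe sets included all those of 21 member genes, their signals ran from 5.9 to 526.8, and 18 of them had at least 1 value under the floor of 36.25. The tested probe sets of Itga5, Cldnd1 and Cldn3 exceeded the mean needed for testing only through the heterozygous pools, and that of Cldn4 only through the wild-type pools. Heterozygous means of Itgb4 (350.3, with heterozygous pool 1 at 278.6) and Itgb2 (374.3) lay only slightly above the mean needed. Counts over the members that were tested therefore describe those members and not the families.

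Itgb2 encodes the beta 2 chain (CD18) shared by the integrins of lymphocytes, granulocytes and macrophages, and its signal was 2589.3 and 1597.6 in wild type against 398.5 and 350 in heterozygous pools. The lower wild-type pool lay above both heterozygous pools. The decrease was 5.45-fold, from 2093 ± 701 to 374.3 ± 34.3 (SD, n = 2). The log2 change was -2.45 with an SE of 0.26 (limma adjusted p = 2.1e-04), and it passed under all 16 alternatives run on it (log2 changes from -3.05 to -2.10). In bulk tissue, fewer cells of a type and less RNA per cell cannot be told apart. Itgax, the alpha chain (CD11c) that pairs with beta 2 on dendritic cells and macrophages, gave 576.6 and 625.5 in wild type and 342.5 and 464.2 in heterozygous pools. The pools did not overlap, but the log2 change of -0.59 (SE 0.29, limma adjusted p = 0.143) did not pass.

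Of 9 probe sets for 6 leukocyte subunit genes, only those of Itgb2 and Itgax were bright enough to be tested, with a median log2 change of -1.52 over these genes. Itga4, the alpha 4 chain by which lymphocytes bind Vcam1 on vessels, gave 290.7 and 266.5 in wild type and 89.6 and 130.2 in heterozygous pools on probe set 95292_at. Its probe set 102655_at gave 167.1 and 182.8 against 42.7 and 66.2. The third, 102656_at, went the other way, with 60.2 and 79.4 against 82.4 and 97.5, so the probe sets of this gene disagreed. Itgae, the alpha E chain of lymphocytes within epithelia, gave 142.6 and 305.5 in wild type and 120.9 and 36 in heterozygous pools on 93961_at, and overlapping values on 161730_f_at (60.3 and 83.1 against 216.5 and 9.1). Itgb2l, a relative of Itgb2, gave 216.9 and 209.6 against 41.5 and 197.7, so that only heterozygous pool 1 was far below wild type. Itgam, the alpha chain (CD11b) of macrophages and granulocytes, gave 89.4 and 51.1 in wild type and 139.2 and 138.3 in heterozygous pools. In all, 6 of the 9 leukocyte probe sets were lower in both heterozygous pools than in both wild-type pools, 2 were higher in both and 1 overlapped. Over all 12422 probe sets, dim ones included, 29.6% were lower in both and 29.1% higher in both. Without the filter, the 7 untested ones did not pass.

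**Figure D2:**
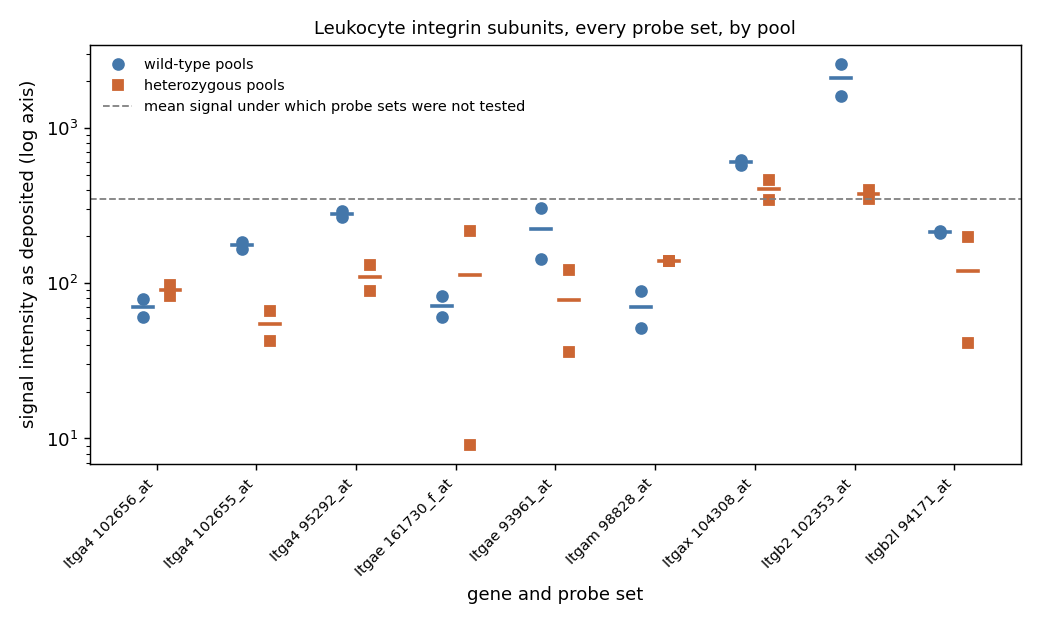
Deposited signal (log axis) of all 9 probe sets of leukocyte integrin subunits in the 2 wild-type pools (circles) and the 2 heterozygous pools (squares), with bars at group means and a dashed line at the mean signal under which probe sets were not tested. Itgb2 and Itgax lie above that line in their means, and the 3 probe sets of Itga4 do not all go the same way.

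Markers of the cells that carry leukocyte integrins were read in the same pools, where 19.5% of all tested genes rose and 19.5% fell. In the lymphocyte and thymus list of 24 genes, 21 of 21 tested fell (median log2 change -2.81), with summed signals of 167743 and 167268 in wild type against 22326 and 22479 in heterozygous pools. Markers of macrophage and granulocyte, the other carriers of beta 2 integrins, were 1 higher, 2 lower and 7 not passed of 10 tested (median log2 change 0.07), with summed signals of 26466 and 24805 in wild type and 24570 and 24970 in heterozygous pools. The granulocyte gene S100a8 (-1.69) and Cd68, of a lysosomal protein of macrophages (-0.65), fell, and Mrc1, of the macrophage mannose receptor (0.70), rose. The part of these cell types in the decrease of Itgb2 was not tested.

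**Figure D3:**
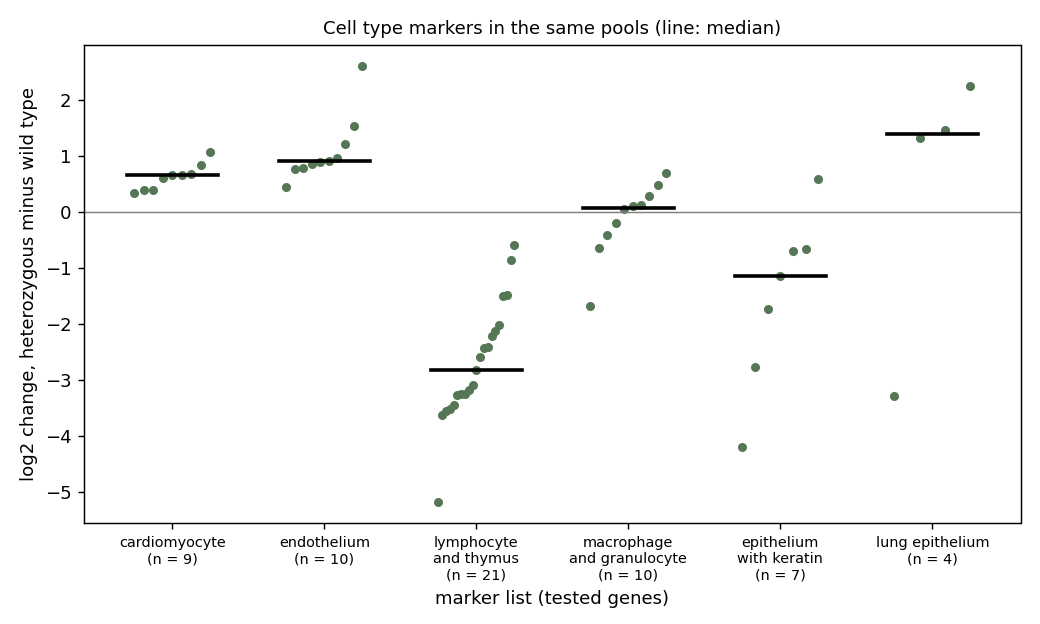
Log2 change (heterozygous minus wild type) of every tested gene of 6 marker lists, 1 point per gene with a line at the median. Lymphocyte and thymus markers lie below 0 in all 21 cases, cardiomyocyte and endothelium markers lie above 0 in all 9 and 10 cases on the deposited scale, and macrophage and granulocyte markers lie on both sides.

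Among the tissue integrin subunits, with signals as deposited, Itga5, Itga7, Itgb1 and Itgb5 rose, Itgb4 fell and Itga3, Itga6 and Itgav did not pass. That is 4 of 8 tested genes higher and 1 lower, where 19.5% of all tested genes rose and 19.5% fell, and Itga5 was tested only through its heterozygous pools. Their median log2 change was 0.43. Itga7 encodes the alpha 7 chain, which with beta 1 is the laminin receptor of muscle fibres. Its probe set 93061_at gave 1276.1 and 1113.2 in wild type and 2490.1 and 2662.6 in heterozygous pools, a 2.16-fold increase (log2 change 1.11, SE 0.17, adjusted p = 0.00132) that passed under all 16 alternatives. The probe set 161497_f_at gave 1452.2 and 1751 against 2418.5 and 3108.8, with no overlap and a smaller increase of 1.72-fold (log2 change 0.78, SE 0.19, adjusted p = 0.0119). That second call ended without wild-type pool 1 (0.65) and without heterozygous pool 2 (0.60). Another probe set, 160086_at, stayed under the floor in every pool (18.6 to 29.9) and was not tested.

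Itga5, the alpha 5 chain of the main fibronectin receptor, gave 36.6 and 179.3 in wild type and 604.5 and 671.2 in heterozygous pools. Both heterozygous pools lay well above both wild-type pools, but wild-type pool 1 was next to the floor, and the wild-type pools differed from each other more than the heterozygous ones. The log2 change was 2.98 (SE 0.73, adjusted p = 0.0120), with values of 1.83 when wild-type pool 1 was left out and 4.12 when wild-type pool 2 was. With the floor at the 20th percentile the log2 change was 2.33. The change no longer passed when either heterozygous pool was left out (3.05 without the first and 2.90 without the second). Other alpha chains did not pass. The laminin receptor chain Itga6 gave 760.8 and 1004.3 against 841.5 and 966.7, which overlap (log2 change 0.05, SE 0.22, limma adjusted p = 0.894). Itgav, the alpha chain of vitronectin receptors, gave 5913.1 and 5744.8 against 5544 and 5617.5 on its brighter probe set, a narrow separation (log2 change -0.06, SE 0.14, limma adjusted p = 0.754). Its dimmer tested probe set spread from 207.5 to 663.3 within the heterozygous pools alone (log2 change -0.11, SE 0.58). The Itgav probe set 98366_at was not tested (203.7 and 187.2 against 211.6 and 195.7). Itga3, a laminin receptor chain of epithelia, had overlapping pools on its tested probe set (394 and 315.5 against 383.7 and 587.2). Its log2 change was 0.43 (limma adjusted p = 0.366). The Itga3 probe set 104210_at was not tested and also overlapped, with 79.8 and 220.7 against 526.8 and 212.8. The collagen receptor chain Itga2 and the chain Itga8 were not tested, and Itga2 was low only in heterozygous pool 1 (183.6 and 184.7 against 31.4 and 199.2).

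Itgb1 encodes the beta 1 chain, the partner of alpha 5 and alpha 7 among others, and its probe set 100123_f_at gave 27472.2 and 29011.5 in wild type and 36767.6 and 39233.1 in heterozygous pools. Both heterozygous pools were higher, by 1.35-fold in the mean (log2 change 0.43, SE 0.12, adjusted p = 0.0252). It did not pass when wild-type pool 1 (0.39) or either heterozygous pool (0.47 and 0.38) was left out, nor under quantile normalization (0.20) and cyclic loess (0.12), nor without limma's mean-variance trend (adjusted p = 0.0960). The dimmer probe set 100124_r_at gave 3678 and 4793.7 against 6150.7 and 5115.2, a log2 change of nearly the same size (0.42, SE 0.18) that did not pass (limma adjusted p = 0.0964) and passed without wild-type pool 2 (0.61) and at a common array median (0.60). The letter f in a probe set's name marks probes that can match related sequences. Among tested members it also marks the brighter Itgav probe set (104386_f_at), Itga7 161497_f_at and the dimmer Itgb5 probe set (162218_f_at). Itgb5, the beta 5 chain that pairs with alpha V to bind vitronectin, gave 2765.6 and 2190.2 in wild type and 3640.4 and 3746.5 in heterozygous pools. Both heterozygous pools were higher (log2 change 0.59, SE 0.17, limma adjusted p = 0.0247), and the call was lost on leaving out wild-type pool 2 (0.42) or either heterozygous pool (0.61 and 0.56), and without limma's mean-variance trend (adjusted p = 0.0599). Its dimmer probe set gave 552.2 and 677.5 against 874.6 and 815.5, also without overlap (log2 change 0.47, limma adjusted p = 0.142).

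Itgb4 went the opposite way. It encodes the beta 4 chain, which pairs with alpha 6 in the hemidesmosomes that anchor epithelia to laminin, and it gave 854.7 and 832.9 in wild type and 278.6 and 421.9 in heterozygous pools. The decrease was 2.46-fold, from 843.8 ± 15.4 to 350.3 ± 101 (SD, n = 2). The log2 change of -1.30 had an SE of 0.29 (limma adjusted p = 0.00833), and it passed with each pool left out in turn. The Itgb4 call was lost without the filter on dim probe sets (limma adjusted p = 0.0948). The gene of its partner chain, Itga6, had a log2 change of 0.05. A list of epithelium markers, whose tested genes were keratin genes, Sfn and Trp63, was read in the same pools. Of 7 tested 4 fell and none rose (median log2 change -1.15), where 19.5% of all tested genes rose and 19.5% fell. Summed signals of the list were 12534 and 11880 in wild type and 3681 and 3665 in heterozygous pools. Krt8 and Krt18, keratins of simple epithelia, had log2 changes of -1.72 and -2.76. Those of Krt17 and Krt7, which also fell, were -4.18 and -1.15. Krt19 went the other way without passing (0.59, limma adjusted p = 0.165). The part of such cells in the Itgb4 decrease was not tested. Itgb3, the beta chain of the platelet fibrinogen receptor, was not tested, with 251.1 and 39.8 in wild type and 43.4 and 52.3 in heterozygous pools, so that wild-type pool 1 alone was high.

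Itgb1bp1, which encodes a protein that binds the tail of beta 1 and slows integrin activation, had 3 tested probe sets and none passed. They disagreed in direction, since 100990_g_at gave 2571.8 and 2160.8 in wild type and 2165.9 and 2048.6 in heterozygous pools (log2 change -0.16). In contrast, 100989_at gave 1367.9 and 1464.2 against 1774 and 1945.5 (log2 change 0.39), and 100991_at gave 772.6 and 747.2 against 942.1 and 975.8 (log2 change 0.34). The latter pair did not overlap between genotypes and did not pass on the deposited scale. Probe set 100989_at passed with a common median (0.57) and under quantile normalization (0.52), and lay at -0.22 with arrays centred on the cardiomyocyte markers.

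**Figure D4:**
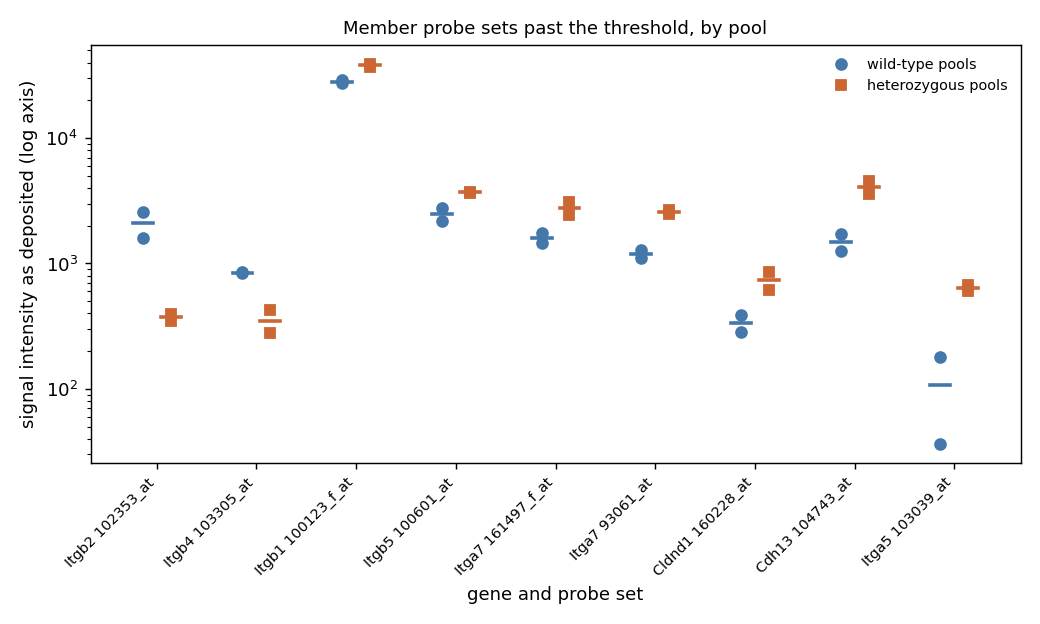
Deposited signal (log axis) of the 9 member probe sets past the threshold, in the 2 wild-type pools (circles) and the 2 heterozygous pools (squares), with bars at group means. The genotypes do not overlap in any of the 9, and the wild-type pools of Itga5 at 36.6 and 179.3 are the farthest apart on this axis.

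Cadherins were mostly too dim to test: 3 of 11 genes had a tested probe set. Cdh13, or T-cadherin, is attached to the membrane by a lipid anchor and binds adiponectin on endothelium and muscle. It gave 1250.2 and 1707.7 in wild type and 4544.4 and 3581.1 in heterozygous pools, all heterozygous values being above all wild-type values. The increase was 2.76-fold, from 1479 ± 324 to 4063 ± 681 (SD, n = 2). The log2 change of 1.47 had an SE of 0.20 (limma adjusted p = 8.2e-04), and it passed with each pool left out in turn (1.24 to 1.69) and under each scaling. The epithelial E-cadherin gene Cdh1 gave 1326.3 and 1475.5 against 994.4 and 1308.1, a small gap between the genotypes that did not pass (log2 change -0.29, SE 0.20, limma adjusted p = 0.284). Cdh3, the P-cadherin gene of basal epithelium, gave 940.4 and 598 against 453.9 and 656.4 with overlap (log2 change -0.46, SE 0.31, limma adjusted p = 0.270). The 12 untested cadherin probe sets, which include all those of Cdh4, Cdh6, Cdh8, Cdh9, Cdh10, Cdh11, Cdh15 and Cdh16, ran from 5.9 to 198.3. Of these, Cdh9 gave 73.5 and 64.4 in wild type and 131.3 and 124.2 in heterozygous pools, and the mesenchymal Cdh11 gave 164.7 and 98 against 26.6 and 131. Without the filter on dim probe sets, neither Cdh9 nor Cdh13 (limma adjusted p = 0.0600) passed.

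Claudins and the claudin domain gene Cldnd1 had 4 tested genes of 10. Cldnd1 gave 281.7 and 385.5 in wild type and 611.7 and 856.9 in heterozygous pools, a 2.20-fold increase (log2 change 1.14, SE 0.32, adjusted p = 0.0204) whose call ended without wild-type pool 1 (0.91) or heterozygous pool 2 (0.89). Cldn5, the main claudin of endothelium, gave 1072 and 883.3 against 1263.7 and 1511, with both heterozygous pools higher. Its log2 change of 0.51 (SE 0.20, limma adjusted p = 0.0776) did not pass on the deposited scale, and passed with arrays shifted to a common median (0.69), under quantile normalization (0.66) and under cyclic loess (0.59). With arrays centred on the cardiomyocyte markers it was -0.10 and did not pass. Cldn4, of epithelial tight junctions, gave 574.5 and 588.1 in wild type and 277.6 and 381.4 in heterozygous pools, lower in both. Its log2 change of -0.84 (SE 0.31, limma adjusted p = 0.0635) did not pass, and passed without the mean-variance trend and with arrays centred on the cardiomyocyte markers (-1.44). Cldn3, another epithelial claudin, gave 338.8 and 307.1 against 440.8 and 365.5 (log2 change 0.32, SE 0.35, limma adjusted p = 0.509). The 9 untested probe sets, of Cldn1, Cldn2, Cldn6, Cldn7, Cldn8 and Cldn11 and a second one of Cldn3, ran from 16.3 to 188.6.

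Markers of further cell types moved as follows in the same pools, where 19.5% of all tested genes rose and 19.5% fell. Which of these cells carry the members was not measured. Of 10 tested endothelium markers 9 rose (median log2 change 0.90), with summed signals of 24689 and 25376 in wild type and 48677 and 44813 in heterozygous pools, beside Cdh13 and Cldn5. Of 9 tested cardiomyocyte markers 8 rose (median log2 change 0.65), with summed signals of 572405 and 517452 against 789506 and 826289, beside Itga7 and Itgb1. Fibroblast markers rose in 7 of 9 cases and 1 fell (median log2 change 0.74). The 1 that fell was Thy1 (-2.22), which the lymphocyte and thymus list also holds. In the lung epithelium list 3 of 4 tested genes rose and 1 fell, among them Sftpc (log2 change 2.25) and Napsa (-3.29), with summed signals of 23284 and 20219 against 55991 and 47677. Smooth muscle markers rose in 2 of 7 cases (median 0.52), skeletal muscle markers fell in 2 of 6 (median -0.68), and erythroid markers rose in 1 of 3 (median 0.32). The only tested platelet marker, Vwf, which endothelium also expresses, rose (0.76), and 1 of 2 Schwann cell and neuron markers fell (median -0.50). The part of these cell types in the members' changes was not tested.

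Sequence upstream of the start site is shown for the members that rose together and have an entry in RefSeq's promoter table (GRCm38.p6), in which 26 of the 39 members were matched. The window runs from 250 bases before the start to 50 after it, 5′ to 3′ on the gene's strand, and capitals mark the GC box GGGCGG on either strand. Itga5 lies at chr15:103366742-103367041 on the minus strand, Itgb1 at chr8:128685404-128685703 on the plus strand, Itgb5 at chr16:33829415-33829714 on the plus strand, and Cldnd1 at chr16:58727660-58727959 on the plus strand.
Itga5: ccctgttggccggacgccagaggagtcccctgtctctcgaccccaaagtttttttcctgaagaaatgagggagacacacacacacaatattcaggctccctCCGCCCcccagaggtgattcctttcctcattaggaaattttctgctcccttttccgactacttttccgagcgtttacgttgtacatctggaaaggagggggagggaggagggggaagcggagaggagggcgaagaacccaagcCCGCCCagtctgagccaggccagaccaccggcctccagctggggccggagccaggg
Itgb1: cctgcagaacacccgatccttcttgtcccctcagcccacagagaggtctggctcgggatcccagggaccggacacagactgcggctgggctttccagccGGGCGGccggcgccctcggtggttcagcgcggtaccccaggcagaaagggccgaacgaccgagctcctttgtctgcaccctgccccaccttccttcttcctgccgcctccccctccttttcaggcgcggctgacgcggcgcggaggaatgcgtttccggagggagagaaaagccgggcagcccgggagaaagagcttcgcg
Itgb5: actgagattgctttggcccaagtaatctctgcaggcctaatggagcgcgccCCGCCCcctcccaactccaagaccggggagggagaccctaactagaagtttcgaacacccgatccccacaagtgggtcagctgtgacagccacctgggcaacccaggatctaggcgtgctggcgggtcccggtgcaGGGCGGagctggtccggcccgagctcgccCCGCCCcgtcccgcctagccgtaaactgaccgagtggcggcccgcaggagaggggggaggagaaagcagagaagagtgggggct
Cldnd1: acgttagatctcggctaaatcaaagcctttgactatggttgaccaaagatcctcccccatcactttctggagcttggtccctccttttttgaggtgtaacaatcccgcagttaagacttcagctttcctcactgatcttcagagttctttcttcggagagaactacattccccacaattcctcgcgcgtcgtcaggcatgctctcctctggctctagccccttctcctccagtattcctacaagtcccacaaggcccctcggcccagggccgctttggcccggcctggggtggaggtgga

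The GC box was matched 2 times in the Itga5 window, 1 time in that of Itgb1, 3 times in that of Itgb5 and 0 times in that of Cldnd1, and 35.7% of all 32851 promoters hold at least 1. Over the 28 promoter entries of members, 67.9% hold it. The letters TATAAA on either strand were found in none of the 4 windows and in 13.6% of all promoters. The letters GAGGAA on either strand, a core that the leukocyte factor PU.1 can bind, were matched in 28.3% of all promoters and in 42.9% of those of members. Among leukocyte subunits they were matched 3 times in the window of Itgam, 2 times in that of Itgb2l and 0 times in those of Itga4 and Itgax. Itgb2 had no promoter entry and was not read. In the printed windows they were matched 2 times for Cldnd1, 1 time each for Itga5 and Itgb1, and 0 times for Itgb5. CG dinucleotides numbered 13, 27, 20 and 11 in the 4 printed windows, against a median of 7 over all promoters. These matches describe the letters only.

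Partners of the integrin, cadherin and claudin families, not of each member, were read from lists of genes, each by its probe set of highest mean signal. The background over all tested genes was 19.5% higher and 19.5% lower. These lists were read on the deposited scale only, on which the cardiomyocyte markers had a median log2 change of 0.65. Among matrix ligands of integrins, 10 of 17 rose, 1 fell and 6 did not pass (median log2 change 0.55). The basement membrane collagen gene Col4a2 (1.10), the fibrillar collagen gene Col1a1 (1.18) and the laminin chain genes Lama5 (1.12) and Lama4 (0.82) rose, whereas Tnc, of tenascin C, fell (-1.62). Ligands of the members above were also read, chosen after their values were seen: Fn1, of fibronectin, the ligand of the alpha 5 chain, had a log2 change of 0.19 (limma adjusted p = 0.449), and Vtn, of vitronectin, had one of -0.02 (limma adjusted p = 0.955). Among cell-surface ligands of leukocyte integrins, 2 of 5 fell and none rose (median log2 change -0.64). Vcam1, the ligand of the alpha 4 chain, had a log2 change of -0.98 (adjusted p = 0.00209) and Icam1, a ligand of beta 2 integrins, one of -0.84 (limma adjusted p = 0.0252).

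Adaptors inside the cell moved both ways, with 2 of 12 higher, 3 lower and 7 not passed (median log2 change -0.08). The kindlin genes differed: Fermt3, the kindlin of blood cells, fell (log2 change -1.94) and Fermt2, the kindlin of muscle and other tissues, rose (1.08). Ptk2b, a focal adhesion kinase relative found in blood cells, and Actn1, an alpha-actinin, fell (-1.54 and -1.30), and Vcl, of vinculin, rose (1.02). Of cadherin partners in adherens junctions and desmosomes, 7 of 11 rose, 1 fell and 3 did not pass (median log2 change 0.65). That list is of the family and holds desmosome genes, and it was not matched to Cdh13. Jup, of plakoglobin (1.72), Ctnna1, of alpha-catenin (1.02), and Nectin2, of a nectin (0.88), rose, and Pkp1, a plakophilin of stratified epithelia, fell (-0.96). Of 5 tested claudin partners at the tight junction 1 rose, Tjp1 of the scaffold ZO-1 (0.76), and 4 did not pass (median log2 change 0.42).

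The array scaling sets where 0 lies. Counts and medians of the partner and marker lists, read only on the deposited scale, depend on it as well. With arrays centred on the cardiomyocyte markers, an alternative added after seeing the data that by construction lowers every log2 change alike and so takes small increases below 0, the median of all tested probe sets was -0.61, and Itgb1 (-0.18) and Itgb5 (-0.02) lay below 0. On that scale Cdh13 (0.86), Itga5 (2.37) and Itga7 on 93061_at (0.50) passed as higher, and Itgb2 (-3.05) and Itgb4 (-1.91) were among 8 probe sets that passed as lower. The Itga7 probe set 161497_f_at (0.17) and Cldnd1 (0.53) no longer passed. The median of the tissue integrin subunits was then -0.18, in place of 0.43. With arrays shifted to a common median, where the median of all tested probe sets was 0.18, it was 0.61.

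**Figure D5:**
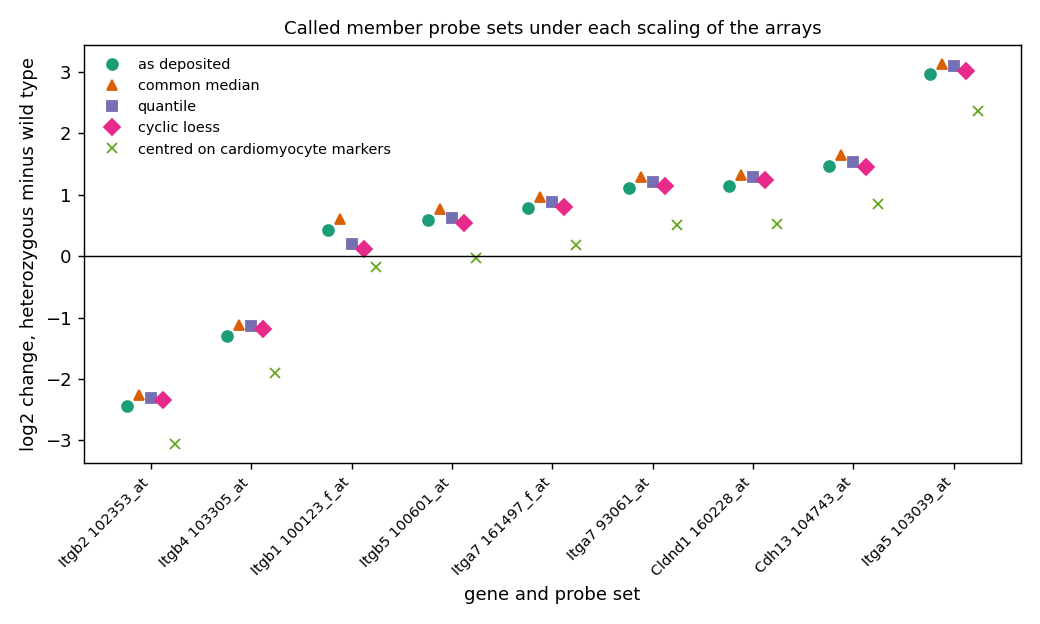
Log2 change (heterozygous minus wild type) of the 9 member probe sets past the threshold under 5 scalings of the arrays, shown by marker shape. Itgb2, Itgb4, Itga7, Cldnd1, Cdh13 and Itga5 keep their sign under all 5, and Itgb1 and Itgb5 lie below 0 when arrays are centred on the cardiomyocyte markers.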

How the data were processed

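Transcripts of 4 heart RNA pools, 2 per genotype with 5 hearts in each, were measured on 1-colour arrays. The gene in which the animals were heterozygous is left unnamed here. The authors deposited linear signal intensities per probe set, with summarisation software and genome build not given in the sources used here. Trimmed means (2% off each end) of the 4 arrays lay within 1.01 times of each other, under the limit of 1.05, so intensities were used unscaled. Precision is limited by the number of pools. The 66 control probe sets were removed, of which heterozygous pool 2 had no values. A floor was set at the 10th percentile (36.25), which altered 0 of the tested member values, log2 was taken, and the lowest 40% of 12422 probe sets by mean were not tested.

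The other 7453 were fitted with limma 3.58.1 in R 4.3.3 (lmFit, eBayes with a mean-variance trend), with genotype as the only term, two-sided, at an adjusted p of 0.05. With 2 pools a side, exact permutation p-values start at 0.333. The fit was tested on simulated data. Gene names are those of the platform annotation. All 59 member probe sets were found by gene ID in GRCm38.p6, with 0 symbols changed. Named with pool values were called members, members whose probe sets disagreed and leukocyte subunits, and partner and marker lists by counts and up to 4 genes of smallest p. Pool values of other tested members are given too. The genes Cdh9, Cdh11, Itga2, Itgb3, Tnc, Fermt2, Fn1, Vtn and Krt19 were singled out after their values were seen. The lists and members were chosen with earlier results of these data known. Alternatives were scaling, floor, filter, moderation, replicate block, left-out pools, threshold and class membership. Plots used matplotlib 3.10.9.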

Additional observations from a re-analysis of the deposited data

How the results depend on the processing

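Over 372 refits of single tested member probe sets, 330 kept their side of the threshold, 25 lost the call with the same sign and 15 gained one. In 16 of the 330 the sign turned without a call before or after. With arrays centred on the cardiomyocyte markers, an alternative added after seeing the data, 2 more lost the call and turned sign (Itgb1 to -0.18 and Itgb5 to -0.022). Only Itgb2 and 1 Itga7 probe set kept the call throughout. Members that rose (7) numbered 11 with a common median, 1 without the filter on dim probe sets, 3 centred on the cardiomyocyte markers, 2 at an adjusted p of 0.01 and 2 to 7 with a pool left out. Members that fell (2) numbered 1 without the filter, 1 with the lowest 60% not tested, 8 centred on the cardiomyocyte markers and 2 with any pool left out. The filter alters which and how many probe sets are adjusted together.

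The leukocyte median (-1.52) was -1.34 with a common median, -1.36 under quantile normalization, -1.30 without the filter or with the lowest 20% not tested, -2.45 with the lowest 60% not tested, when Itgb2 alone remained, -2.13 centred on the cardiomyocyte markers and -1.66 to -1.37 with a pool left out. The tissue integrin median (0.43) was 0.61 with a common median, 0.24 without the filter, -0.18 centred on the cardiomyocyte markers and 0.25 to 0.54 with a pool left out. The cadherin median (-0.29) was 0.17 without the filter, 0.59 with the lowest 60% not tested, -0.90 centred on the cardiomyocyte markers and -0.49 to -0.10 with a pool left out. The median of the claudin class, in which Cldnd1 was counted, was 0.41. It was 0.59 with a common median, 0.57 under quantile normalization and 0.51 under cyclic loess. With the lowest 60% not tested, when Cldn5 alone remained, it was 0.51. Centred on the cardiomyocyte markers it was -0.20, and with a pool left out 0.31 to 0.52. With a pool left out, the lone pool of its genotype was assumed to vary like the other group. With the replicate block, 7 members rose and 2 fell, and no single call changed. The pools share only a number, and same-numbered deviations correlated at 0.16 across probe sets. The cause of these shifts was not tested. Signal under the mean needed for testing left most leukocyte, cadherin and claudin genes untested.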
